A study of Mus musculus with 9 samples.

Results

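NRF2, encoded by Nfe2l2, is a transcription factor that KEAP1 holds at a low level by directing it to degradation, and oxidants or electrophiles that modify KEAP1 release it. Its best known targets make and recycle the 2 thiol buffers of the cell, glutathione and thioredoxin, and in monocytes and macrophages these systems limit damage from the oxidants that the cells themselves produce. The 10 genes described here were chosen by symbol as the core of this pathway, with earlier results of these data known. Shares and medians of all genes are therefore set beside theirs without a test. They are Nfe2l2 and its inhibitor Keap1, the glutathione genes Slc7a11, Gclc, Gclm and Gsr, the thioredoxin genes Txnrd1, Srxn1 and Prdx1, and the quinone reductase gene Nqo1. Each of the 10 had 1 row among the 46072 genes of the deposited tables, and all 10 were detected in every library.

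The RNA came from monocytes enriched from the spleens of female C57BL/6 mice aged 8 to 10 weeks by magnetic removal of other cells, and was sequenced without further stimulation. Con mice received water by gavage for 6 days, Van mice received vancomycin at 2 mg per mouse per day in gavages of 1 mg, and VanLip mice received the same vancomycin and then the lipid L654, a bacterial ligand of TLR2, injected behind the eye on days 7, 9 and 11. In all groups the gavage was followed by a rest free of antibiotic of 8 days, within the 6 to 8 that the labels give. Each group had 3 mice and 3 libraries. The general injection protocol of the study gave PBS to controls, but the labels and its account of these libraries name injections for VanLip alone. If Con and Van were not injected, lipid and injection cannot be told apart. L654 without vancomycin was not analysed here.

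Con and Van libraries held 43070361 to 61383806 counts, VanLip libraries 170503470 to 184720704. The commonest low count, a measure of the size of 1 read, was 1.33 in the former and 2.00 in the latter. Converted to fragments with the read length inferred from it, the former held 16151385 to 23018927 and the latter 42625868 to 46180176, a smaller gap. Depth therefore coincides with VanLip and cannot be told apart from the treatment. A difference in read length is inferred from these counts alone, since the study's methods name a single read length for all libraries, and it would coincide with VanLip too. Every VanLip contrast below carries this limit. The summed level of 10 monocyte markers was 9674 to 12220 FPKM (fragments corrected for transcript length and sequencing depth) over all libraries, most of it Lyz2. Single monocyte markers moved with the groups: Ccr2, the chemokine receptor of classical monocytes, was 159 to 173 FPKM in Con, 70.4 to 98.2 in Van and 156 to 256 in VanLip, and was called for Van versus Con (log2 fold change -0.83, DESeq2 adjusted p of 0.00048). Of the 10 monocyte markers 1 was called for Van versus Con and 0 for VanLip versus Con. For VanLip versus Van 3 were called, Ccr2, Ly6c2 and Cx3cr1, all higher (1.04, 0.39 and 0.43). The others were not called. Among them, Cd14 had 172.5 to 192.7 FPKM in Van and 93.8 to 196.1 in VanLip, and Csf1r had 540.7 to 642.6 and 548.3 to 574.5. The sum of 7 neutrophil markers was 13.4 to 36.8 FPKM, mostly Mmp8, with Ly6g at 0 in every library and Ngp called lower for VanLip versus Con. Of 5 markers of conventional dendritic cells 2, 2 and 1 were called for Van versus Con, VanLip versus Con and VanLip versus Van, and of 5 of plasmacytoid dendritic cells 1, 0 and 1. Erythroid markers moved with the groups: 6 of the 7 listed were found, of which 5 were called for Van versus Con and 6 for VanLip versus Con, all higher after treatment. Their sum ran from 99.6 to 202.5 FPKM in Con, from 343 to 772 in Van and from 278 to 1162 in VanLip. The sum of 6 markers of red pulp macrophages, which recycle iron, ran from 635 to 773 FPKM in Con, from 781 to 986 in Van and from 617 to 827 in VanLip, and 1 of them was called in each contrast that involves Van. The part of these cells in the results below was not tested, and in bulk RNA fewer cells of a type and less RNA per cell cannot be told apart.

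The 10 genes differed widely in level per transcript length. Gsr, which encodes the glutathione reductase that returns oxidised glutathione to its thiol form, was the most abundant at 197 FPKM on average over the 9 libraries, at rank 311 of 26108 detected genes. Nfe2l2 at 113 FPKM and Prdx1, a peroxiredoxin that reduces peroxides, at 110.0 FPKM followed, and the ranges of these neighbours overlapped. Txnrd1, the cytosolic thioredoxin reductase, stood alone at 23.2 FPKM. Keap1 at 14.2 and Gclc, the catalytic subunit of the enzyme that starts glutathione synthesis, at 12.5 FPKM overlapped. Gclm, the modifier subunit of the same enzyme, and Srxn1, the sulfiredoxin that repairs overoxidised peroxiredoxins, were alike at 4.44 and 4.41 FPKM. Slc7a11, the cystine importer that supplies cysteine for glutathione, had 1.13 FPKM and Nqo1 had 0.734 FPKM. Nqo1, often used as the standard readout of NRF2, was thus the lowest of the 10, with expected counts from 51.7 upward.

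**Figure D1:**
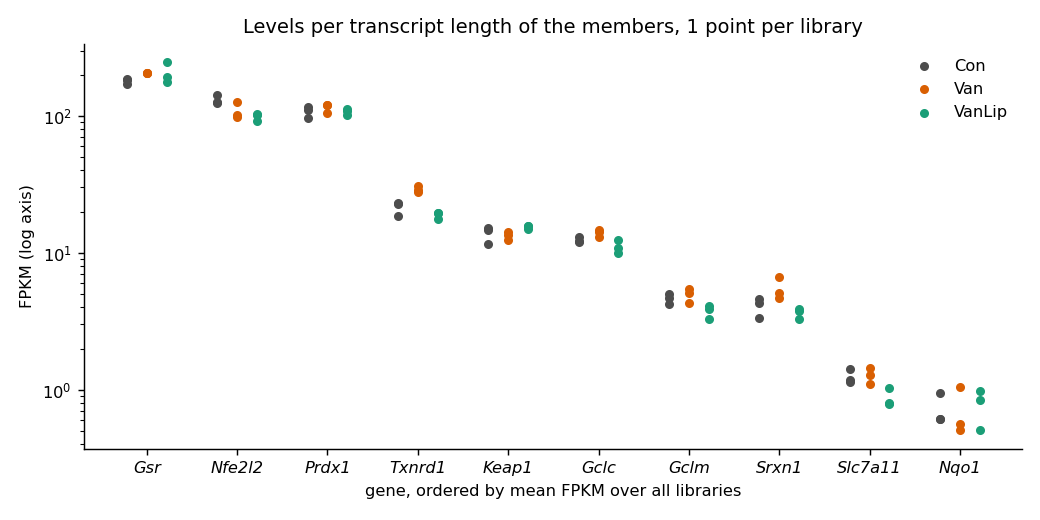
FPKM of the 10 genes on a log axis, ordered by their mean over all libraries, with 1 point per library and colours for Con, Van and VanLip. The genes run from Gsr at 197 FPKM on average down to Nqo1 at 0.734 FPKM, and the 3 groups of each gene lie within a narrow band of the axis.

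NRF2 binds, with a small MAF protein, to the antioxidant response element, whose core reads TGACNNNGC, and AP-1 binds the related TGANTCA. A RefSeq promoter window (GRCm38.p6) was found for 8 of the 10 genes, 10 windows in all, and the 250 bases before each start were searched on both strands. Entries for Gclc and Gsr were missing. The core was present before Nfe2l2, Gclm, Prdx1 and 1 of the 3 starts of Txnrd1, while 10.2% of the 32851 windows of all genes hold it and 6.75% hold the AP-1 site. The stretches below show these 4 matches in capitals. Stretches are shown too for Srxn1 and Slc7a11, which had no match to the core as spelled here. Srxn1 holds the AP-1 site. Slc7a11 holds the C/EBP-ATF response element TGATGNAA, a motif searched after its sequence was seen and present in 3.45% of windows. In Gclm, Txnrd1 and Prdx1 the core is on the opposite strand and so appears as its reverse complement, and the Prdx1 match overlaps an AP-1 site. The stretches lie at chr2:75704875-75704913 (minus strand) for Nfe2l2, chr3:122245403-122245451 for Gclm, chr10:82859094-82859142 for Txnrd1, chr4:116685446-116685494 for Prdx1, chr2:152105412-152105495 for Srxn1 and chr3:50443637-50443695 (minus strand) for Slc7a11, and none touches an exon of its own gene in GENCODE M21.
Nfe2l2: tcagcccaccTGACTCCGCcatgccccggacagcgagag
Gclm: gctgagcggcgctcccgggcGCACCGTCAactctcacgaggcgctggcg
Txnrd1: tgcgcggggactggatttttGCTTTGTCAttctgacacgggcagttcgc
Prdx1: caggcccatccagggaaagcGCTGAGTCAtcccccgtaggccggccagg
Srxn1: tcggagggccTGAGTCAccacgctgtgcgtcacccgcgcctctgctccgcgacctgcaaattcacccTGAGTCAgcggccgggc
Slc7a11: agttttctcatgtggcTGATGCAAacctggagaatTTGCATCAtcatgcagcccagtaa

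Srxn1 holds its AP-1 site at 2 places and Slc7a11 holds its element in both orientations. No match to the core in Srxn1, Slc7a11, Keap1 and Nqo1 means only that these exact letters are not in this window.

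The comparison of Van with Con asked how these genes stood after vancomycin and a rest. Txnrd1 was the only one of the 10 called, and it rose 1.34-fold. Normalized counts, which correct the deposited counts for library size, are used from here on. Txnrd1 had 6141, 7673 and 7351 in the Con libraries and 9495, 9826 and 9120.5 in the Van libraries. Every Van library was above every Con library, and the Van libraries lay close together. This was a log2 fold change of 0.43, SE 0.09 (DESeq2 adjusted p of 0.000573), and edgeR's quasi-likelihood test gave an adjusted p of 0.0433. With limma on log2 (FPKM + 1) the change was 0.41 and the adjusted p 0.142, which ends the call. Leaving out any 1 library left Txnrd1 called.

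One called gene of 10 stands beside 4.34% of the 18516 genes tested in this contrast (2.27% higher and 2.06% lower in Van). Among all genes edgeR called 0.743%, limma 0.138% and limma without a mean-variance trend 0.352%, and 11.1% had an unadjusted p under 0.05, as had 3 of the 10. The normalized counts of Van and Con did not overlap for 4 of the 10, where 20.8% of the tested genes had no overlap. These were Txnrd1, Srxn1 and Gsr, all higher in Van, and Nfe2l2, lower in Van. The median log2 fold change of the 10 was 0.13, against -0.01 over all tested genes, and 7 of the 10 values were positive. Con replicate 1 stood apart in the mean z-score of the 10 genes, at -0.62 against 0.25 and 0.35 in the other Con libraries and 0.30 to 0.65 in Van, so that only this Con library lay well below Van. Without it the median was 0.084 with 6 positive, and under limma on log2 (FPKM + 1) it was 0.073. On FPKM 4 genes had no overlap as well, with Gclc in place of Nfe2l2, but the share of all genes was not taken on FPKM.

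Srxn1 had 883, 1143 and 1208 normalized counts in Con and 1806, 1329 and 1233 in Van. Replicate 1 was the highest Van library and replicate 3 lay just above the highest Con library. Its difference of 0.43 on the log2 scale (SE 0.17) did not pass (DESeq2 adjusted p of 0.142), and it was 0.25 without Van replicate 1. Gsr had 44023, 47484 and 46215 in Con and 52628, 51005 and 52552 in Van. Both groups were tight and apart, with a log2 difference of 0.18 (SE 0.11) that did not pass (DESeq2 adjusted p of 0.496). The spread in this fit is shared with VanLip, where Gsr varied more, and with only the Con and Van libraries in the fit Gsr passed at a DESeq2 adjusted p of 0.0198, as it did without VanLip replicate 1 (0.0451).

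Nfe2l2 itself went the other way. It had 27321, 24471 and 23933 normalized counts in Con and 23391, 19089.5 and 19246 in Van. Replicate 1 of Van lay just under the lowest Con library and the other two well under it, while on FPKM replicate 1 overlapped with Con. At -0.29 on the log2 scale (SE 0.10) the difference did not pass (DESeq2 adjusted p of 0.081). It passed with only these groups in the fit, at a DESeq2 adjusted p of 0.0278, and when 1 library was left out, without Van replicate 1 (-0.40, adjusted p of 0.003), VanLip replicate 1 (0.0355) or VanLip replicate 3 (0.0486).

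The remaining 6 genes overlapped between Van and Con. Their log2 fold changes were 0.22 for Slc7a11, 0.17 for Gclc, 0.09 for Prdx1, 0.01 for Gclm, -0.04 for Nqo1 and -0.06 for Keap1, with DESeq2 adjusted p from 0.419 to 0.988. The Slc7a11 value rests on scale and on single libraries, as it was 0.037 and 0.060 under limma on log2 (FPKM + 1) and log2 (FPKM + 0.1), 0.098 without Con replicate 2 and 0.13 without Van replicate 1. Nqo1 was too variable for a difference of this kind to be detectable, as its 95% interval ran from -0.81 to 0.73. For Prdx1 the interval was from -0.09 to 0.26, and the value was 0.017 without Con replicate 1 and 0.15 without Con replicate 2. The uncalled values of Keap1, Gclm and Nqo1 likewise moved by over 1.5 times with single libraries.

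**Figure D2:**
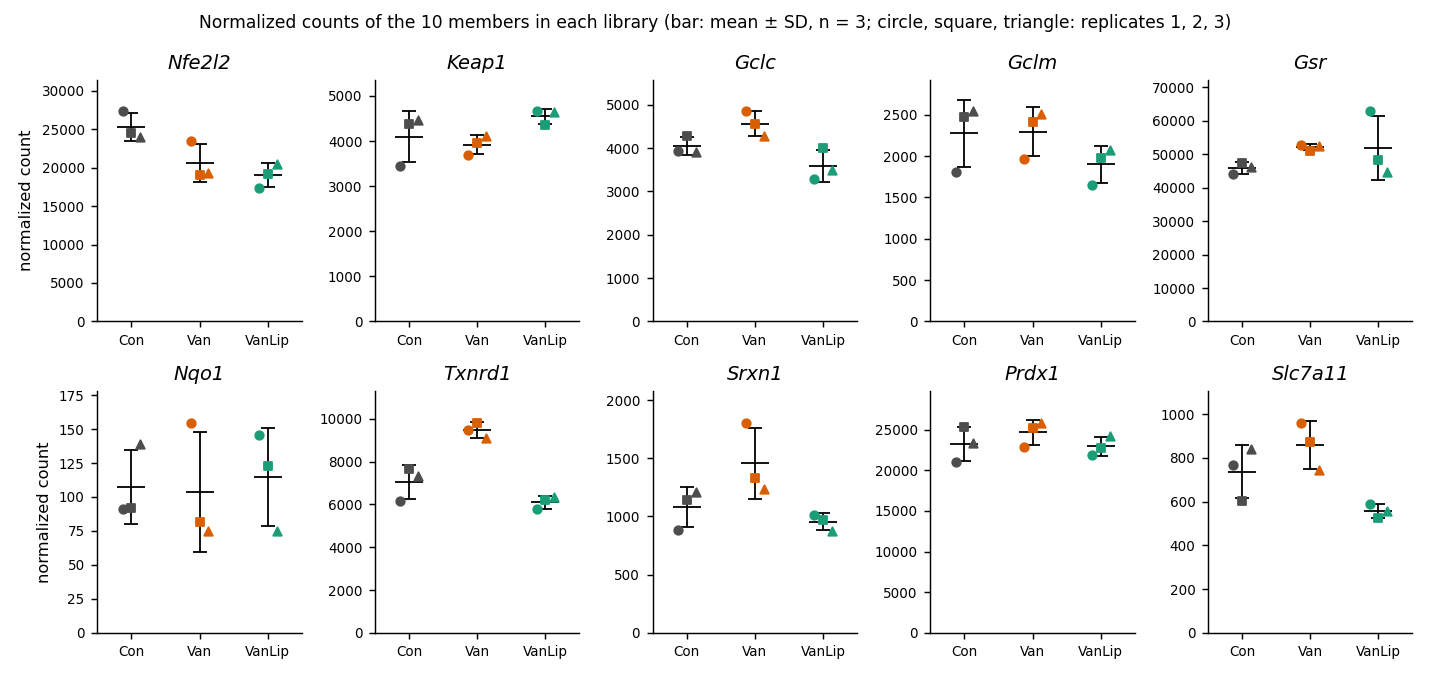
Normalized counts of the 10 genes in the 9 libraries, on axes that start at 0, with the mean and SD of 3 libraries per group. Txnrd1 is higher in all 3 Van libraries (9120.5 to 9826) than in any Con or VanLip library, Slc7a11, Srxn1 and Gclc are higher in Van than in VanLip without overlap, and Nfe2l2 is highest in Con.

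VanLip was set against Van to see what differed once the lipid had followed vancomycin. Here 4 of the 10 genes were called, and all 4 were lower in VanLip: Txnrd1, Slc7a11, Srxn1 and Gclc. Of all 18025 genes tested 9.86% were called, 4.58% higher and 5.28% lower in VanLip. Among all genes edgeR called 2.86%, limma 2.35% and limma without a trend 2.64%, and 15.5% had an unadjusted p under 0.05, as had 5 of the 10. Counts did not overlap for 5 of the 10, the 4 called genes and Keap1, where 25.9% of tested genes had no overlap. The median of the 10 was -0.20, against 0.01 over all tested genes.

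Txnrd1 had 5769, 6229 and 6344 normalized counts in VanLip, so the means were 9481 ± 353 for Van and 6114 ± 304 for VanLip (SD, n = 3 each). The highest VanLip library lay far below the lowest Van library, and the VanLip libraries overlapped with Con. On the log2 scale the difference was -0.63, SE 0.09 (DESeq2 adjusted p of 1.92e-09), at rank 115 by adjusted p in this contrast. It was called under every setting tried, including edgeR (adjusted p of 0.00216), limma and the VanLip libraries thinned to the depth of the others. The erythroid marker sums of Van and VanLip overlapped. The red pulp macrophage sums overlapped too, with 2 of the 3 VanLip libraries below every Van library, and its marker Vcam1 was called lower in VanLip (log2 fold change -0.50). Ccr2, Ly6c2 and Cx3cr1 were called higher in VanLip and the other monocyte markers were not called, as given above. The part of these shifts in the Txnrd1 result was not tested.

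The cystine importer gene Slc7a11 had 766, 604 and 841 normalized counts in Con, 961, 872 and 743 in Van, and 588, 526 and 555 in VanLip. All VanLip libraries were below all others. VanLip differed from Van by -0.63 on the log2 scale, SE 0.15 (DESeq2 adjusted p of 0.00135), and edgeR gave an adjusted p of 0.0419. On the log2 (FPKM + 1) scale the value was -0.28 and on log2 (FPKM + 0.1) it was -0.50, neither of which passed (limma adjusted p of 0.197 and 0.196). The value was larger with the smaller pseudocount while the adjusted p hardly moved, and why the call was lost was not tested.

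Srxn1 had 1016, 971 and 873 normalized counts in VanLip, all under the lowest Van library at 1233. The difference was -0.61 on the log2 scale, SE 0.17 (DESeq2 adjusted p of 0.00586). The call was lost under edgeR (adjusted p of 0.0622), under limma, and without Van replicate 1, the highest library, where the difference was -0.43 (DESeq2 adjusted p of 0.0848). All VanLip libraries were within or just under the Con range.

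Gclc had 3942, 4280.2 and 3921 normalized counts in Con, 4849.8, 4556 and 4269 in Van, and 3290.3, 4006 and 3491 in VanLip. Van and VanLip did not overlap. VanLip was lower by -0.34 on the log2 scale, SE 0.10 (DESeq2 adjusted p of 0.00705). The call was lost under edgeR (adjusted p of 0.0739), under limma, without Van replicate 1 (-0.29, DESeq2 adjusted p of 0.0863) and without VanLip replicate 1 (-0.28, 0.0565). Gclm, its partner subunit, had 1962, 2413 and 2514 normalized counts in Van and 1652, 1975 and 2069 in VanLip, which overlapped. On FPKM it did not overlap, with 4.33 to 5.41 in Van and 3.29 to 4.07 in VanLip. This makes 6 of the 10 without overlap on that scale, for which no share of all genes was taken. At -0.27 on the log2 scale (SE 0.15) Gclm did not pass (DESeq2 adjusted p of 0.303). The difference between Gclc and Gclm was not tested. Gclm overlaps the antisense transcript Gm17494, which had a mean expected count of 1213, and although the library kit was stranded, whether strand was used in the counting was not given in the sources used here, so its count is uncertain. Txnrd1 overlaps Eid3 on its own strand and Gm38560 and Gm47073 on the opposite one, for which no counts were used here, so reads shared with them cannot be sized.

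Keap1 was the one gene higher in all VanLip than in all Van libraries, with 3698, 3963 and 4109 normalized counts in Van and 4661, 4362 and 4639 in VanLip. The difference of 0.22 (log2, SE 0.11) did not pass (DESeq2 adjusted p of 0.215), except without Con replicate 1 (0.22, 0.0412). The other 4 genes overlapped, with log2 fold changes of 0.14 for Nqo1, 0.00 for Gsr, where the sign turned with the scaling, -0.10 for Prdx1 and -0.12 for Nfe2l2. The Nfe2l2 value was -0.014 without Van replicate 1 and -0.056 without VanLip replicate 1, and that of Prdx1 was -0.067 without Van replicate 3. Nqo1 ran from -0.074 to 0.55 with 1 library left out. Gsr had 62823, 48107.5 and 44800.3 normalized counts in VanLip, so replicate 1 lay above every other library of the series and the other two were near Con.

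**Figure D3:**
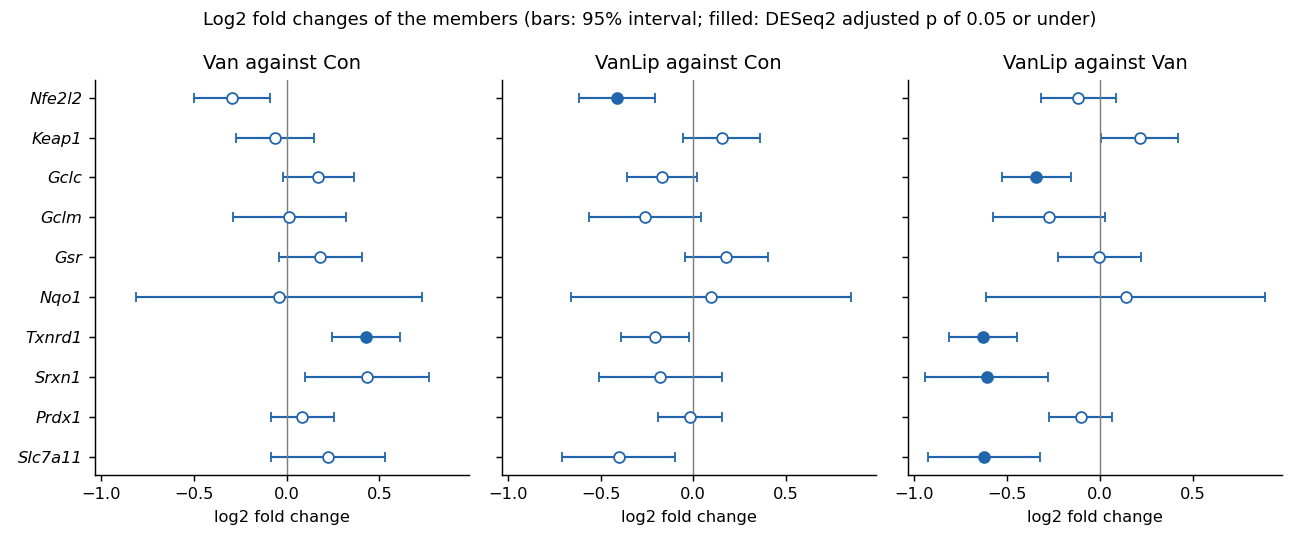
Log2 fold changes of the 10 genes in the 3 contrasts, with bars for the 95% interval and filled points where the DESeq2 adjusted p was 0.05 or under. Txnrd1 at 0.43 is the filled point for Van versus Con, Nfe2l2 at -0.41 for VanLip versus Con, and Gclc, Txnrd1, Srxn1 and Slc7a11 for VanLip versus Van, all at -0.34 or lower.

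The comparison of VanLip with Con took both treatments together. Nfe2l2 was called, and it was lower in VanLip. It had 17317.5, 19192 and 20423 normalized counts in VanLip, all below the lowest Con library at 23933, and the fold was 0.752. On the log2 scale VanLip differed by -0.41, SE 0.10 (DESeq2 adjusted p of 0.00299). The call was lost under edgeR (adjusted p of 0.075), under limma on log2 (FPKM + 1) with all genes (adjusted p of 0.114) and without Con replicate 1, where the difference was -0.35 (DESeq2 adjusted p of 0.0581). Among all 16552 genes tested 6.67% were called, 2.98% higher and 3.69% lower. Over all genes edgeR called 1.14%, limma 0.739% and limma without a trend 0.908%, and 13% had an unadjusted p under 0.05, as had 3 of the 10.

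Counts of VanLip and Con did not overlap for 2 of the 10, Nfe2l2 and Slc7a11, where 23.5% of tested genes had no overlap. On FPKM there were 3, with Gclm added, again with no share of all genes taken. Slc7a11 was at -0.40 (log2, SE 0.15, DESeq2 adjusted p of 0.0976), and passed without Con replicate 2 (-0.53, 0.0237). Under limma on log2 (FPKM + 1) it was -0.25 (adjusted p of 0.3). Txnrd1 was -0.21 with a 95% interval from -0.39 to -0.02 and a DESeq2 adjusted p of 0.19, and it passed without Con replicate 1, the lowest Con library (-0.30, 0.0106). Srxn1 and Gclc were -0.18 and -0.17, and Gclm was -0.26, with DESeq2 adjusted p from 0.331 to 0.648. Without Con replicate 3 Srxn1 was -0.088, and without VanLip replicate 1 Gsr was 0.017. Without Con replicate 1 Keap1 was 0.043. Gsr at 0.18, Keap1 at 0.15, Nqo1 at 0.10 and Prdx1 at -0.02 completed the 10. The median was -0.17, against 0.01 over all tested genes.

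Tested across all 3 groups at once, the DESeq2 likelihood-ratio test called 5 of the 10, namely Txnrd1, Nfe2l2, Slc7a11, Srxn1 and Gclc, at adjusted p of 3.24e-09, 0.00335, 0.00371, 0.0105 and 0.0182, where 13.5% of the 16552 tested genes were called. Under edgeR and under limma in all 4 settings only Txnrd1 of the 10 was called. Txnrd1, Srxn1, Slc7a11 and Gclc each had their highest mean in Van and their lowest in VanLip, and Nfe2l2 had its highest in Con. The VanLip contrasts share libraries with the Van contrast, so these values stand side by side and are not independent of each other.

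Across the 9 libraries the closest pairs among the 10 were Gclc with Txnrd1 (Pearson r of 0.86), Txnrd1 with Srxn1 (0.85) and Gclm with Prdx1 (0.84). These values describe 9 libraries that also differ in group and depth. The genes most like the average of the 10, taken as the mean z-score of log2 normalized counts, were Mir1668, Naif1 and Msh6, with r of 0.95, 0.95 and 0.94 among 13493 genes averaging 50 normalized counts or more. Mir1668 (ENSMUSG00000098465; GRCm38 chromosome 8, 83723878 to 83723984) lies inside Adgre5 on the same strand, a gene with a far higher count, so its count is uncertain. Naif1 and Msh6 overlap Slc25a25 and Fbxo11 on the opposite strand, genes with mean expected counts of 2646 and 5715, so without a stated use of strand their counts are uncertain too. They had log2 fold changes of 0.04 and 0.16 for Van versus Con and of -0.15 and -0.35 for VanLip versus Van.

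The rest of the pathway was read from 6 further lists of 102 genes. Of the 101 with an adjusted p, DESeq2 called 3 for Van versus Con (2.97%), 4 for VanLip versus Con (3.96%) and 6 for VanLip versus Van (5.94%), below the shares of all genes tested in each contrast. At an unadjusted p under 0.05 the shares were not below those of all genes: DESeq2 had 12, 16 and 20 of the 102, which is 11.8%, 15.7% and 19.6%, beside 11.1%, 13% and 15.5% of all genes. With edgeR 0, 0 and 2 were called, and 12, 17 and 21 had an unadjusted p under 0.05. Most of the calls in these lists hang on the test or on single libraries.

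Among 11 partners and regulators of NRF2, Bach2 was called for Van versus Con. It encodes a BTB-domain factor that competes for MAF sites and is best known from B cells. Its mean fell from 1064 ± 174 normalized counts in Con to 671 ± 103 in Van, and was 784 ± 80.5 with the lipid (SD, n = 3 each). For Van versus Con this was -0.66 on the log2 scale, SE 0.16 (DESeq2 adjusted p of 0.00344). No call was made under edgeR (adjusted p of 0.0681), under limma, or when Con replicate 3 (-0.52, 0.0671) or Van replicate 3 (-0.57, 0.0529) was left out. The limma value on log2 (FPKM + 1) was -0.33 (adjusted p of 0.297). Summed B lineage markers ran from 45.48 to 60.96 FPKM in Con, from 38.5 to 45.53 in Van and from 42.85 to 66.68 in VanLip. The magnetic selection removes cells with CD45R, a B cell protein, and the part of remaining B cells in the result was not tested.

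Among the genes of glutathione synthesis and use, 1 of 31 tested was called for Van versus Con and 2 for VanLip versus Van. Abcc1, an exporter of glutathione and its conjugates, rose from 5720 ± 112 in Con to 6667 ± 300 in Van and was 5317 ± 240 in VanLip (normalized counts, SD, n = 3 each). The log2 fold changes were 0.22 and -0.33, with DESeq2 adjusted p of 0.0296 for Van versus Con and 4.31e-05 for VanLip versus Van. The first call was lost under edgeR and limma and, with values of 0.20 to 0.24 and DESeq2 adjusted p of 0.0882 to 0.236, without any 1 of the Con libraries or Van replicate 1 or 2. The second was called in all settings tried. Ggt5, which encodes a gamma-glutamyl transferase, was lower in VanLip than in Van at -0.63 (DESeq2 adjusted p of 0.0129). That call was lost under edgeR, under limma, without Van replicate 2 (-0.40, 0.132) and without VanLip replicate 2 (-0.58, 0.0807). The limma value on log2 (FPKM + 1) was -0.33 (adjusted p of 0.326).

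Among 21 thioredoxin and peroxiredoxin genes DESeq2 called 0 for Van versus Con, with 1 at an unadjusted p under 0.05 and 0 called by edgeR and limma. For VanLip versus Con it called 3. Prdx2, a peroxiredoxin very abundant in red blood cells, was higher at a log2 fold change of 0.22, and Txnip, the inhibitor of thioredoxin, and Sesn2, a stress-induced sestrin, were lower at -0.33 and -0.36 (DESeq2 adjusted p of 0.0313, 0.0476 and 0.0134). The erythroid sums given above were higher in VanLip than in Con beside the rise of Prdx2, and their part in it was not tested. For VanLip versus Van it called Prdx5, another peroxiredoxin, higher at 0.39 and Sesn2 lower at -0.32 (DESeq2 adjusted p of 0.0199 and 0.0258). None of these 5 values passed under edgeR or under limma in any of the 4 settings. With only the groups compared in the fit, Prdx2 (DESeq2 adjusted p of 0.107) and Sesn2 for VanLip versus Con (0.0506) were lost, and Txnip was lost with no independent filtering (0.0708) and with counts converted to fragments (0.0537). With the VanLip fragments thinned to the depth of the others, Sesn2 lost both calls (DESeq2 adjusted p of 0.0531 and 0.0718) and Txnip its call (0.0669), which was lost with TMM sizes too (0.0875). With 1 library left out, adjusted p rose above 0.05 for Prdx2 without any library but Con replicate 2 or Van replicate 1 (up to 0.202). For Txnip this held without any but Van replicate 1, Van replicate 3 or VanLip replicate 3 (up to 0.283), and for Prdx5 without replicate 1 or 2 of Van or VanLip (up to 0.135, and a value of 0.26 without VanLip replicate 1). Sesn2 lost its VanLip versus Con call without Con replicate 2 or 3 or VanLip replicate 2 or 3 (up to 0.123). It lost its VanLip versus Van call without any Van library or VanLip replicate 2 or 3 (up to 0.129).

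The detoxification and iron list held 18 genes. Fth1, the ferritin heavy chain, rose from 159664 ± 1965 normalized counts in Con to 186151 ± 6553 in Van and was 148252 ± 11834 in VanLip (SD, n = 3 each), with log2 fold changes of 0.22 and -0.33 (DESeq2 adjusted p of 0.0415 for Van versus Con and 0.000134 for VanLip versus Van). The first call was lost under edgeR, without any 1 of the Con or Van libraries (adjusted p of 0.0789 to 0.275), with no independent filtering (0.0569), and in limma with a trend and all genes, where the value was 0.46. The second was lost only in limma with a trend and all genes (adjusted p of 0.205 and 0.196). Ftl1, the ferritin light chain, was lower in VanLip than in Van at -0.23 (DESeq2 adjusted p of 0.0456), which was lost under edgeR, with TMM sizes (-0.21, adjusted p of 0.09), with no independent filtering (0.0641), under limma, where the value was -0.08, and without Con replicate 2, Van replicate 2 or 3, or VanLip replicate 1 or 2 (adjusted p of 0.0785 to 0.249). Ferritin genes have processed pseudogene copies that can share reads, so these values are uncertain, and the red pulp macrophage sums given above were also highest in Van. Ugdh was higher in VanLip than in Con at 0.24 (DESeq2 adjusted p of 0.0406) and lost its call under edgeR, under limma in all 4 settings (adjusted p of 0.159 to 0.231), with counts converted to fragments (0.0504) or also thinned (0.12), with no independent filtering (0.0604), with only the groups compared (0.129) and without any 1 library except Con replicate 3 (adjusted p of 0.0667 to 0.253).

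The 13 genes of NADPH supply and the 7 of the phagocyte NADPH oxidase had 0 called in each contrast by DESeq2, edgeR and limma on log2 (FPKM + 1). At an unadjusted p under 0.05 in DESeq2 the first list had 0 genes in each contrast and the second had 3 for Van versus Con, 1 for VanLip versus Con and 3 for VanLip versus Van. The oxidase genes had a median log2 fold change of -0.10 for Van versus Con and 0.14 for VanLip versus Van. The list of NADPH supply had medians between 0.04 and 0.06 in the 3 contrasts.

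**Figure D4:**
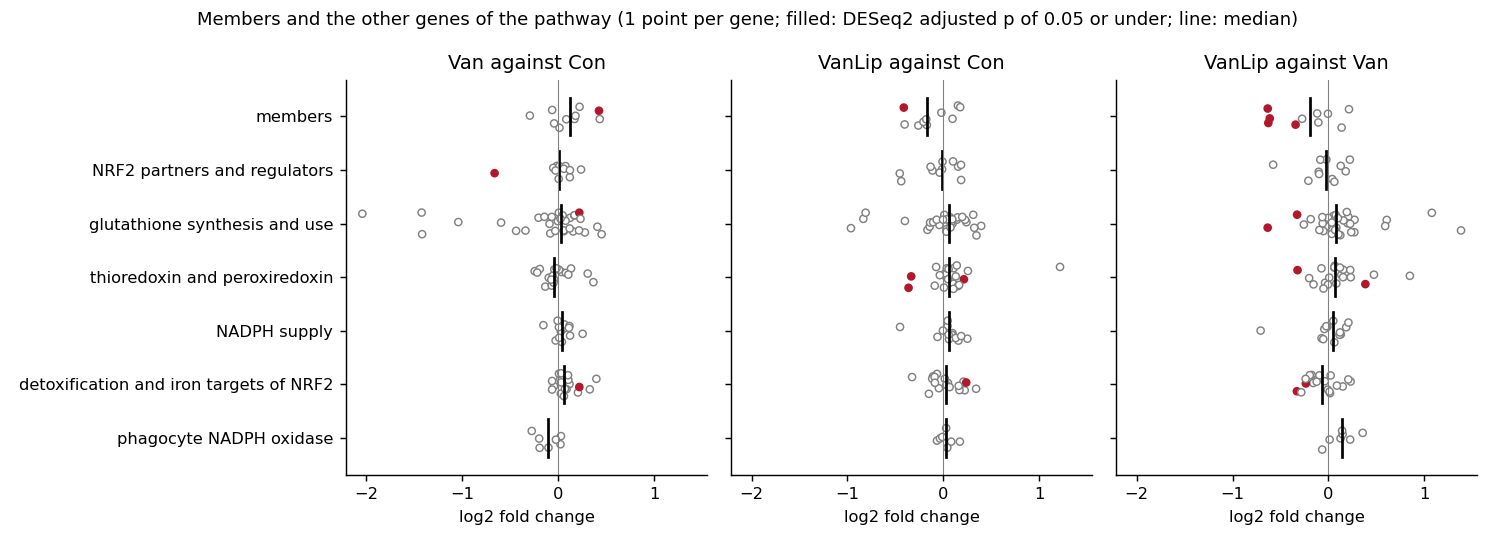
Log2 fold changes of the 10 genes and of the 6 other lists in the 3 contrasts, with 1 point per gene, filled points where the DESeq2 adjusted p was 0.05 or under, and a line at the median. For VanLip versus Van the 10 genes have 4 filled points, all negative, and a median of -0.20, while the other lists have 6 filled points in all and medians between -0.07 and 0.14.

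**Figure D5:**
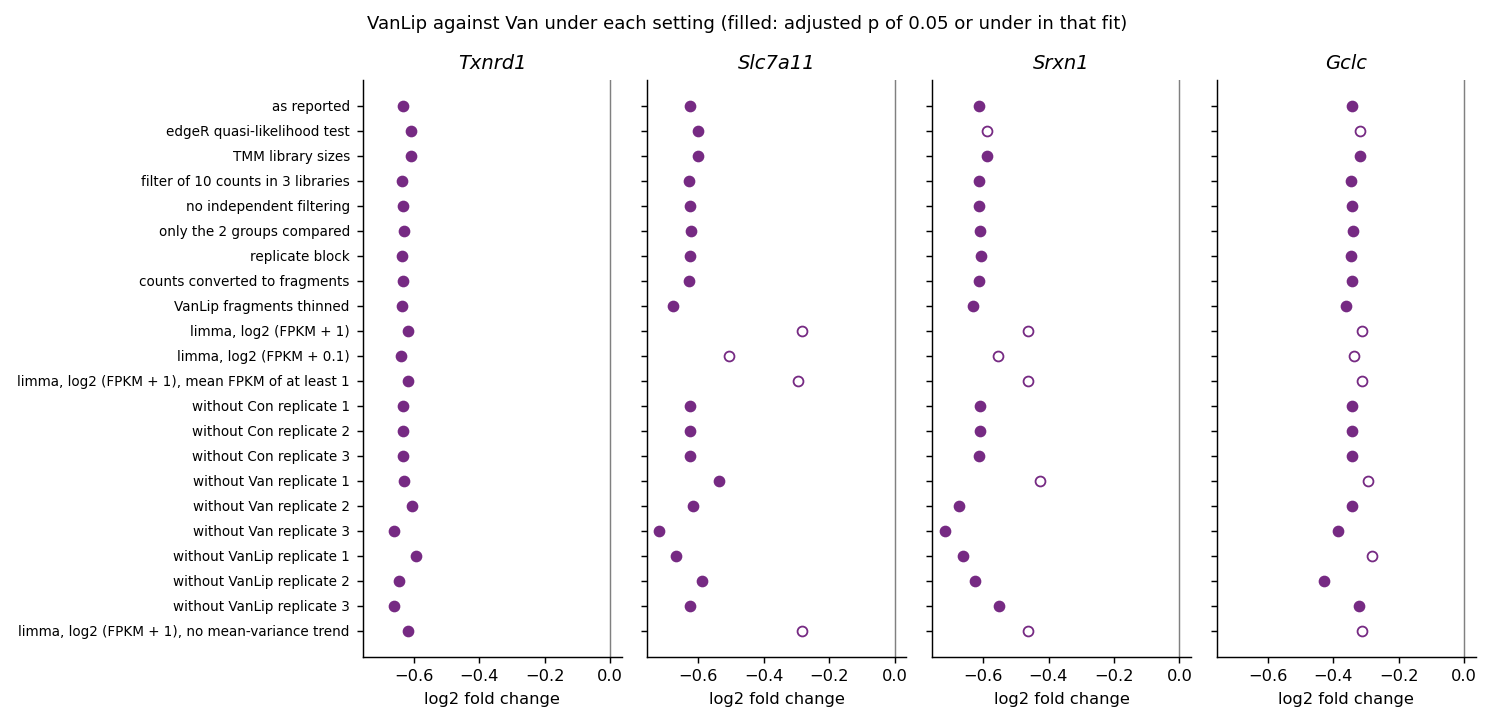
Log2 fold change of Txnrd1, Slc7a11, Srxn1 and Gclc for VanLip versus Van in the reported fit and in each other setting, filled where the adjusted p was 0.05 or under. Every point lies below 0, Txnrd1 is filled throughout, and the other genes lose the call under limma, with Slc7a11 at -0.28 on log2 (FPKM + 1).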

How the data were processed

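RNA of splenic monocytes was sequenced in 9 libraries, grouped by sample title. By the study's methods, the authors mapped read pairs to GRCm38 (HISAT2 2.2.1), made FPKM per gene with StringTie 2.1.3 and converted them with tximport. The authors deposited both tables, FPKM and expected counts, the latter not normalized. The annotation release was not given in the sources used here, and 99.0% of 26108 detected genes matched GENCODE M21. Expected counts were rounded and tested across all genes with the Wald test of DESeq2 1.42.0 (R 4.3.3), with all 9 libraries, median-of-ratios scaling and group as the only term, and with its likelihood-ratio test. Genes were called at a two-sided Benjamini-Hochberg adjusted p of 0.05 or under. Intervals of 95% are normal intervals from the SE, and p-values measure the spread between libraries.

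The 10 genes were given by symbol. From the other lists up to 4 called genes per contrast were named, if they averaged 50 normalized counts or more. Members and lists were chosen with earlier results of these data known. Alternatives were edgeR 4.0.16, TMM sizes, a minimum of 10 counts in 3 libraries, no independent filtering, fits of 2 groups, a replicate block, each library left out, counts converted to fragments, VanLip fragments thinned to the other libraries' depth, and limma 3.58.1 on quantile-normalized log2 FPKM (pseudocount 1 or 0.1, all genes or those averaging 1 FPKM).

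Limma was first run without a mean-variance trend, which called 92, 237 and 688 genes for Van versus Con, VanLip versus Con and VanLip versus Van. The trend was turned on after it was seen to give the counts of an earlier analysis, 36, 193 and 613, and the first version was kept as an added alternative. It changed no count of the 10 genes. The size of 1 read was read between counts of 0.5 and 2.5, a range narrowed after a wider one had picked up pairs of reads in some libraries. The Wald test of DESeq2, edgeR and limma with a trend were run for the 3 contrasts on simulated data with changes planted in Van. The likelihood-ratio test and the other settings were not.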

Additional observations from a re-analysis of the deposited data

How the results depend on the processing

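The limma settings differed from the others in the input as well as in the test. The number of the 10 genes called changed with the test or input, with the groups in the fit and with single libraries. For Van versus Con it was 1, and 3 with only the 2 groups compared and 0 under limma in all 4 FPKM settings, where 2 or 3 genes had an unadjusted p under 0.05. For VanLip versus Con it was 1, and 0 under edgeR and under limma with pseudocounts of 1 or 0.1 or without the trend, where 2 genes in edgeR and 4 in limma had an unadjusted p under 0.05. For VanLip versus Van it was 4, and 2 under edgeR and 1 under limma in all 4 settings. For any difference it was 5, and 1 under edgeR and under limma in all 4 settings. The cause was not tested. Over all genes edgeR called 189, 289 and 727, against 803, 1104 and 1777. With TMM sizes 657 genes were higher and 500 lower for VanLip versus Con, against 494 and 610, and 1013 and 809 for VanLip versus Van, against 826 and 951. Leaving out 1 library gave 1 to 3, 1 to 2, 2 to 5 and 3 to 5 genes in the same order; the extremes are VanLip replicate 1 for the first, Con replicate 2 for the second Van replicate 1 (low) and Con replicate 1 (high) for VanLip versus Van, and Van replicate 1 (low) for any difference.

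Some uncalled values near 0 changed sign. Prdx1 for VanLip versus Con was 0.0057 with edgeR and with TMM sizes. Gsr for VanLip versus Van was 0.019 with edgeR and with TMM sizes and 0.0092 under limma in all 4 settings. Leaving out 1 library gave ranges that cross 0 for Van versus Con in Gclm (-0.13 to 0.12), Keap1 (-0.17 to 0.0031) and Nqo1 (-0.45 to 0.18), for VanLip versus Con in Nqo1 (-0.12 to 0.33) and Prdx1 (-0.086 to 0.048), and for VanLip versus Van in Gsr (-0.16 to 0.091) and Nqo1 (-0.074 to 0.55).

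Adding a replicate block gave 1, 1, 5 and 6 called genes, Gclm being gained for VanLip versus Van (-0.27, DESeq2 adjusted p of 0.0447). The numbers do not pair the libraries: over 9 pairs of same-numbered libraries the correlation of deviations from the group means ran from -0.065 to 0.123. In the other lists 4 calls were lost with the block: Abcc1 for Van versus Con (DESeq2 adjusted p of 0.13), Prdx2 (0.0963) and Ugdh (0.14) for VanLip versus Con, and Sesn2 for VanLip versus Van (0.071). Nqo1 had the fewest counts, from 51.7 in 1 library, and a coefficient of variation of 25.6% in Con, 42.6% in Van and 31.7% in the deeper VanLip libraries. Whether depth limits it was not tested.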
